A study of Mus musculus with 3 samples.

Results

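The genes described here are the translation factors and aminoacyl-tRNA synthetases on the array, followed through adhesion and transformation of the palatal seam of the mouse embryo. They were chosen by symbol. A gene was taken if its symbol began with Eif or Eef and a digit, or was a capital letter followed by "ars", with or without a final 1, and if its probe set named that gene only. Eif2s3x and Eif2s3y were left out. The choice gave 83 of 10833 probe sets naming 1 gene, and 63 of 8251 genes. By its wording it also took in genes that regulate the factors rather than translate: 4 kinases that phosphorylate eIF2, the kinase Eef2k, the cap-binding inhibitors Eif4ebp1 and Eif4ebp2, the transport protein Eif4enif1 and the methyltransferase Eef1akmt1, which modifies eEF1A.

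All tissue was labelled as medial edge epithelium, the cell sheet on the tips of the palatal shelves, freed with the enzyme Dispase II from CF-1 mouse embryos at stage ED13.5. Markers of other cell types were also above the floor at 0 h, by the values given below. The 3 groups were unfused epithelium (0 h), for which no culture is named, fused epithelium from shelves cultured in contact for 12 h, and fused epithelium after 24 h of such culture, labelled as undergoing transformation into mesenchyme. Each time point had 1 array, so no difference below has a replicate error or a test, and time in culture cannot be told apart from fusion. The sources used here do not say how many embryos went into an array.

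Translation begins when eIF2 carries the initiator tRNA to the small ribosomal subunit, with eIF1, eIF1A, eIF3 and eIF5 bound to it, while the eIF4 factors bind the mRNA cap and unwind the leader. eIF2B reloads eIF2 with GTP after each round, and kinases that phosphorylate eIF2 block that step under stress. During elongation eEF1A brings each loaded tRNA, its exchange factor eEF1B reloads it, and eEF2 moves the ribosome on by a codon. The synthetases charge each tRNA with its amino acid. Most of these genes are housekeeping genes, and growing cells need much of their products.

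Before scaling, the trimmed means of the arrays ran between 46.8 and 93.7. After they were made equal, a floor was set at a scaled signal of 13.53, below which no order was read. Of all 8251 genes, 1682 were never above the floor and 4682 were above it throughout. Of the 63 translation genes, 3 (Eef1g, Eif4h and Eif4enif1) were never above it and 50 were throughout. The 3' to 5' signal ratio of the Gapdh control sets over 0, 12 and 24 h was 0.828, 14.9 and 12.6, and that of Actb 1.02, 11.9 and 2.97, higher in both cultured samples than at 0 h. Of 17 epithelial markers on the array, 14, 8 and 13 were above the floor at 0, 12 and 24 h. The summed signal of the epithelial list was 1153, 1822 and 1881 at these times and that of 17 palate mesenchyme markers 6382, 11676 and 12217, with 17, 14 and 15 mesenchyme markers above the floor. The sum was 285, 765 and 738 for 12 macrophage and leukocyte markers, 6477, 1590 and 1514 for 6 erythroid markers, and 283, 576 and 447 for 7 endothelial markers. No marker was at 0 on any array. In such bulk tissue fewer cells of a type and less RNA per cell cannot be told apart, and the part that transcript ends or other cell types play in the values below was not tested.

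At 12 h more of the translation genes were lower than higher against 0 h, although with arrays set to equal medians the counts were nearly even (17 higher, 18 lower) and the median log2 ratio was 0.065. The higher ones under the main scaling were 3 eIF4 factors, 3 eIF3 subunits, 4 other initiation factors, 1 eIF2 kinase and 2 synthetases. A gene was counted when its ratio of scaled signals was at least 2-fold. At 12 h 27 of 60 translation genes with a ratio (45.0%) were at least 2-fold lower, set beside 27.3% of all genes, and 13 (21.7%) were at least 2-fold higher, set beside 17.7% of all genes. The median log2 ratio was -0.38 over the translation genes and -0.21 over all genes. Among genes above the floor on all 3 arrays the lower share was 46.0% of 50 translation genes, set beside 25.4% of all such genes, and the higher share 22.0%, beside 20.3%. Counted over every probe set, 31 of 73 were lower (42.5%, background 27.5%) and 13 higher (17.8%, background 16.7%). The upward share of these calls depended on the scaling: it was 32.5% here, 13.51% with unscaled values, 48.6% with arrays set to equal medians and 40.5% after quantile normalization. All 40 called ratios kept their sign under these 3 other scalings. The median log2 ratio of all genes was itself -0.83 with unscaled values and 0.18 with equal medians. With equal medians 30.0% of translation genes were lower, beside 18.4% of all genes. Sorted by role, the median at 12 h over 0 h kept its sign under all of them for every group except the eIF2 kinases, at 0.33 here and -0.33 with unscaled values.

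Under the main scaling the shares at 24 h differed less from those of all genes than the lower share at 12 h did. Compared with 12 h, 11 of 56 (19.6%) were at least 2-fold higher, near the background of 18.8%, and 9 (16.1%) at least 2-fold lower, with a background of 12.0%. Compared with 0 h, 5 of 59 (8.47%) were at least 2-fold higher, set beside 14.5% of all genes, and 11 (18.6%) at least 2-fold lower, near the background of 17.7%. The median log2 ratios were 0.34 for 24 h over 12 h and -0.37 for 24 h over 0 h, set beside 0.17 and -0.08 over all genes. The upward share was 55.0% for 24 h over 12 h and 31.2% for 24 h over 0 h. It was 42.1% and 2.70% with unscaled values, 37.5% and 42.9% with equal medians, and 40.9% and 30.8% after quantile normalization. With unscaled values the lower share at 24 h over 0 h was 61.0%, beside 49.3% of all genes. That gap was wider than the one at 12 h over 0 h, 53.3% beside 44.8%. The 3 comparisons share arrays pairwise, so they are not independent of one another. Of the 50 translation genes above the floor throughout, 27 (54.0%) had their lowest signal at 12 h, beside 41.9% of all such genes, 13 (26.0%) at 0 h, beside 33.6%, and 10 (20%) at 24 h, beside 24.5%. Their highest signal fell at 0 h in 27 (54.0%), beside 39.2% of all such genes, at 12 h in 14 (28.0%), beside 31.5%, and at 24 h in 9 (18%), beside 29.3%.

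**Figure D1:**
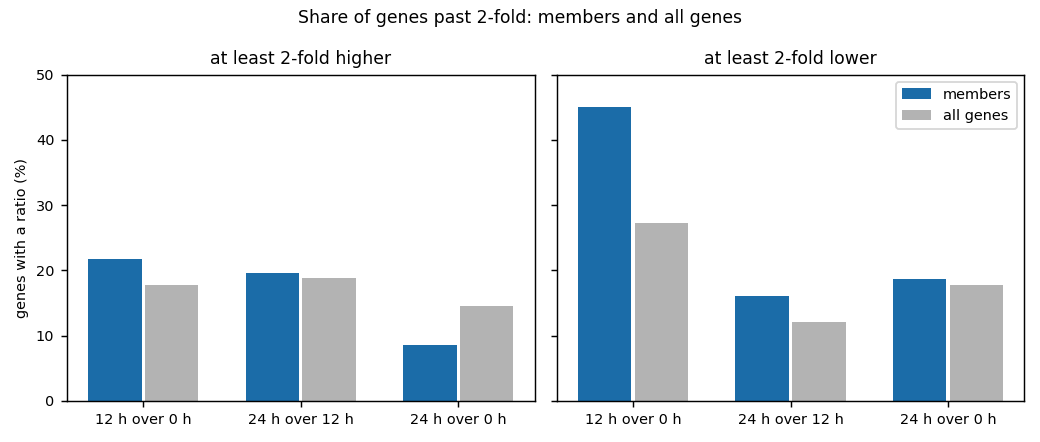
Bars give the percentage of genes with a ratio that were at least 2-fold higher (left panel) or lower (right panel) in each comparison, for the translation genes (blue) and for all genes (grey). The widest gap is that for 12 h over 0 h in the right panel, 45.0% of translation genes and 27.3% of all genes.

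**Figure D2:**
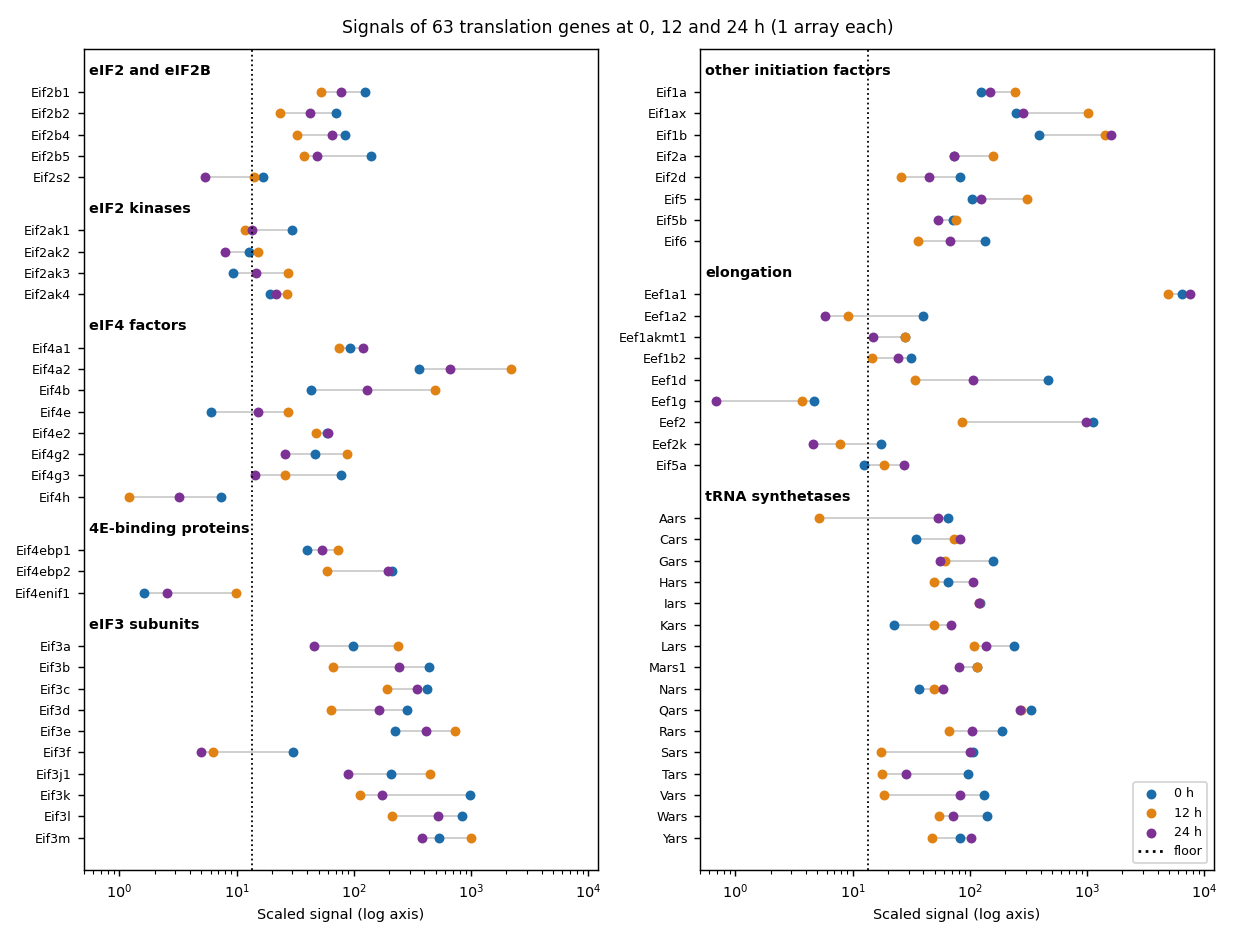
Each row is 1 of the 63 genes, grouped by role, and each point its scaled signal on 1 array (log axis), at 0 h (blue), 12 h (orange) and 24 h (purple). The dotted line is the floor of 13.53, and the 12 h points lie left of the others for the eIF2B subunits, Eef2, Eef1d, Sars, Vars and Yars but right of them for Eif4a2, Eif1ax and Eif5.

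All 4 measured subunits of eIF2B, the exchange factor of eIF2, were lower at 12 h than at 0 h. Their log2 ratios ran between -1.90 and -1.25, so each passed 2-fold downward, beside 27.3% of all genes. Eif2b5, the catalytic epsilon subunit, had scaled signals of 140.5, 37.7 and 48.3 at 0, 12 and 24 h, 3.72-fold lower at 12 h than at 0 h. A second set for Eif2b5, with a signal of 56.7 at 0 h, was at the floor on both cultured arrays, so at least 4.19-fold lower in each. Eif2b2 had signals of 71.1, 23.7 and 42.6, Eif2b4 84.3, 32.9 and 64.5, and Eif2b1 124, 52.4 and 77.1. All 4 subunits were lowest at 12 h and stood between the other arrays at 24 h. After median centring or quantile normalization, 2 of the 4 remained at least 2-fold lower at 12 h, beside 18.4% and 21.1% of all genes. Eif2b4 is read by a suffixed set only, so it has no ratio when suffixed sets are left out. Eif2s2, the beta subunit of eIF2 itself, lay close to the floor throughout, at 16.8, 14.2 and 5.42. Its second set had 18.9 at 0 h and was at the floor on both cultured arrays.

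The eIF2 kinases gave signals near the floor. Eif2ak1, the heme-regulated kinase, had a signal of 29.8 at 0 h and none above the floor in the cultured samples, at least 2.20-fold lower in each. Eif2ak3, the kinase activated by unfolded protein in the endoplasmic reticulum, was at the floor at 0 h, with 27.5 at 12 h (at least 2.03-fold higher) and 14.6 at 24 h. Eif2ak4, the kinase that senses uncharged tRNA, had signals of 19.4, 27.1 and 21.6. Eif2ak2, the interferon-induced kinase activated by double-stranded RNA, was close to the floor at 12.8, 15.3 and 8.0. Of all genes, 17.7% passed 2-fold upward at 12 h and 14.5% at 24 h, both against 0 h. Of 17 other interferon-stimulated genes, 11 of 15 with a ratio passed 2-fold upward at 12 h against 0 h and 0 downward, and at 24 h 15 of 16 passed it upward. Eif2ak2 was not among them, and Wars, a synthetase gene known as interferon-induced, was lower at 12 h, by values given with the synthetases.

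**Figure D3:**
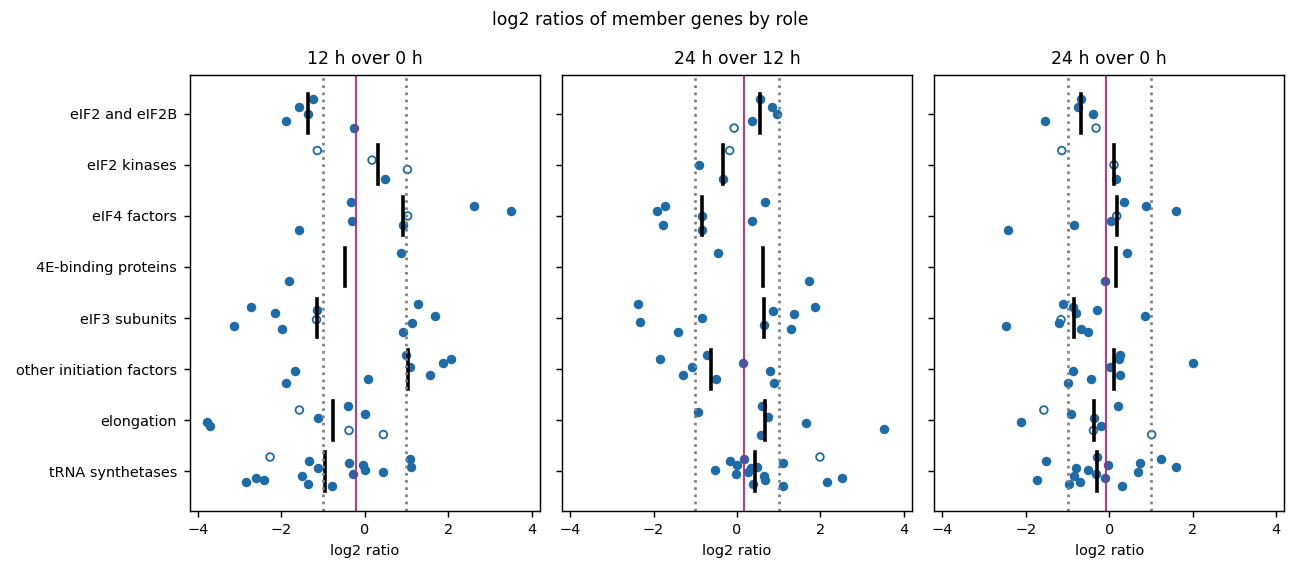
Points are log2 ratios of single genes by role, filled where both arrays were above the floor and open where 1 was at the floor; black bars are role medians, the coloured line the median of all genes and dotted lines 2-fold. In the 12 h over 0 h panel the medians of eIF2 with eIF2B (-1.35), eIF3 (-1.15), elongation (-0.76) and synthetases (-0.95) lie left of the line, and those of the eIF4 factors (0.93) and other initiation factors (1.04) right of it.

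The eIF4 factors, which select the mRNA, differed among themselves at 12 h. Of 7 with a ratio, 3 (Eif4a2, Eif4b and Eif4e) passed 2-fold upward against 0 h and 1 (Eif4g3) downward, beside 17.7% and 27.3% of all genes. The median log2 ratio of the 7 was 0.93. With unscaled values 2 were higher and 3 lower, and with equal medians or quantile normalization 4 were higher and 1 lower. Of all genes, 9.06% were higher and 44.8% lower with unscaled values, 26.2% and 18.4% with equal medians, and 22.1% and 21.1% after quantile normalization. Eif4a2, one of the paired helicases that unwind leaders, had signals of 358, 2185 and 660 at 0, 12 and 24 h, 6.10-fold above its 0 h signal at 12 h and 3.31-fold below its 12 h signal at 24 h. Its paralog Eif4a1 had 93.6, 74.4 and 119, with log2 ratios of -0.33 and 0.68 for the same comparisons. Eif4a2 was thus beyond 2-fold at 12 h and Eif4a1 within it, with a log2 ratio of 0.12 for Eif4a1 with equal medians. Eif4e, the cap-binding protein, was at the floor at 0 h and had 27.6 at 12 h (at least 2.04-fold higher) and 15.3 at 24 h, while the related cap-binding Eif4e2 had 58.9, 47.4 and 60.7. The second Eif4e set was under the floor on all arrays. A second Eif4e2 set gave 33.9, 33.5 and 75.5, at 24 h 2.22-fold above its 0 h signal and 2.26-fold above its 12 h signal.

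The scaffold genes of the eIF4G family differed from each other. Eif4g3 had signals of 77.7, 25.9 and 14.4, lower at each later time, 3.01-fold below its 0 h signal at 12 h and 5.41-fold below it at 24 h. Eif4g2, a scaffold that does not bind the cap factor, had 46.4, 88.2 and 25.8, highest at 12 h and 3.43-fold lower at 24 h than at 12 h. Eif4h, a helper of the helicase, was under the floor on all arrays.

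For Eif4b, the other helper of the helicase, the value depended on the probe set. The set with the highest mean signal gave 43.3, 494 and 130, which is 11.4-fold higher at 12 h than at 0 h. Another gave 256, 90.2 and 178, a log2 ratio of -1.51, and the other 2 sets were under the floor throughout. The sets went opposite ways by more than 2-fold each, so no direction is given for Eif4b, although it counts among the 13 higher genes above.

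Among the inhibitors, Eif4ebp2, which sequesters the cap-binding protein when mTOR is inactive, had signals of 210, 59.4 and 196. It was 3.54-fold below its 0 h signal at 12 h and 3.30-fold above its 12 h signal at 24 h. A second Eif4ebp2 set gave 61.6 at 0 h, the floor at 12 h and 63.2 at 24 h, the same shape, and the remaining set was under the floor. Eif4ebp1, the related inhibitor, had 39.6, 72.8 and 53.1, within 2-fold in every comparison and higher at 12 h where Eif4ebp2 was lower. Eif4enif1, which carries the cap-binding protein into the nucleus, was under the floor on all arrays.

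**Figure D4:**
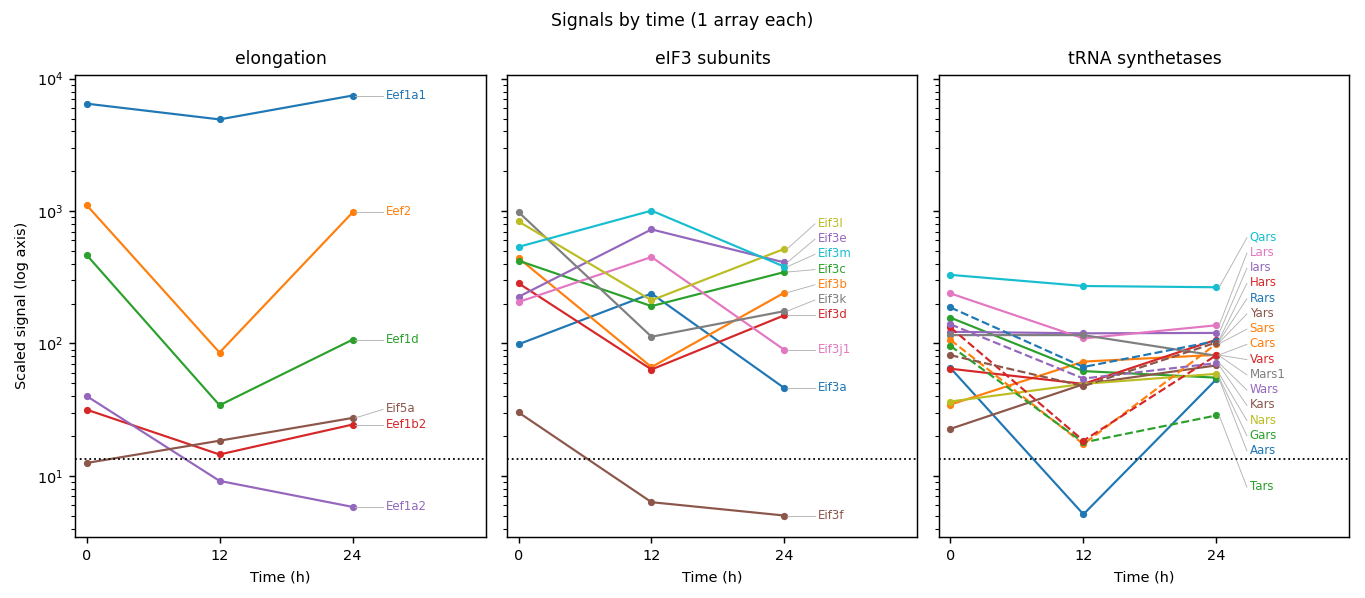
Scaled signals (log axis) against time for 6 of the 9 genes of the elongation group, the 10 eIF3 subunits and the 16 synthetases, 1 array per time, with the floor dotted. Eef2, Eef1d, Sars, Vars and Aars dip at 12 h, whereas Eif3a, Eif3e, Eif3j1 and Eif3m peak there.

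The 10 genes for eIF3, the large scaffold complex of the initiating ribosome, split at 12 h. Against 0 h, 6 subunits passed 2-fold downward and 3 upward, beside 27.3% and 17.7% of all genes. Only Eif3m, at a log2 ratio of 0.91, was within 2-fold. On the lower side, Eif3k had signals of 983, 112 and 176 at 0, 12 and 24 h, 8.74-fold lower at 12 h and still 5.60-fold lower at 24 h than at 0 h. Eif3b, a core subunit that holds the scaffold together, had 442, 66.3 and 242, 6.66-fold lower at 12 h than at 0 h. Its second set was under the floor on all arrays. Eif3d, known in human cells as a cap-binding subunit, had 285, 63.6 and 163.

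Eif3l and Eif3c followed the same order, highest at 0 h and lowest at 12 h. Eif3l had signals of 835, 212 and 519, with a second set under the floor on all arrays, and Eif3c had 422, 191 and 347. Eif3f had 30.2 at 0 h and was at the floor in both cultured samples, at least 2.23-fold lower. These 6 subunits were all below their 0 h signal at 24 h as well.

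The other 4 subunits had their highest signal at 12 h. Eif3e had signals of 225, 727 and 409, 3.23-fold higher at 12 h than at 0 h, although its second set gave 24.3, 24.1 and 47.7, a log2 ratio of -0.01. Eif3a, the largest subunit, had 98.6, 238 and 46.0, 2.42-fold above its 0 h signal at 12 h and 5.19-fold below its 12 h signal at 24 h. Eif3j1, a loosely bound subunit, had 206, 450 and 89.3, and Eif3m 537, 1008 and 380. Eif3a, Eif3j1 and Eif3m thus peaked at 12 h and ended under their 0 h signal. At 24 h 4 of the 10 subunits passed 2-fold downward against 0 h and 0 upward, beside 17.7% and 14.5% of all genes. The subunits that passed 2-fold at 12 h kept their sign under the 3 other scalings, but the counts moved: with unscaled values 1 was higher and 6 lower, with equal medians 4 and 4, and after quantile normalization 2 and 5. The higher and lower shares of all genes moved too. They were 9.06% and 44.8% with unscaled values, 26.2% and 18.4% with equal medians, and 22.1% and 21.1% after quantile normalization.

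Of 8 other initiation genes, among them the factors that scan for and accept the start codon, 4 passed 2-fold upward at 12 h against 0 h and 2 downward. The shares of all genes were 17.7% and 27.3%, and the median log2 ratio of the 8 was 1.04. The counts were even with unscaled values, 2 and 2, and 5 were higher and 2 lower with equal medians or quantile normalization. The shares of all genes with unscaled values were 9.06% higher and 44.8% lower. They were 26.2% and 18.4% with equal medians, and 22.1% and 21.1% after quantile normalization. Eif1ax, the X-linked gene of the scanning factor eIF1A, had signals of 245, 1026 and 286, 4.19-fold above its 0 h signal at 12 h and 3.59-fold below its 12 h signal at 24 h. Its second set gave 95.3, 123 and 46.0, highest at 12 h too, but by a log2 ratio of 0.37. Eif1a, a closely related copy, gave 123, 243 and 148 from one set and 139, 197 and 82.8 from the other, so every set for eIF1A peaked at 12 h. Whether the probes tell the copies apart was not tested.

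Eif5, which triggers GTP hydrolysis by eIF2 at the start codon, had signals of 104, 307 and 125, 2.94-fold above its 0 h signal at 12 h and 2.46-fold below its 12 h signal at 24 h. Eif2a, an alternative carrier of initiator tRNA and despite its name no subunit of eIF2, had 73.0, 156 and 73.6. Both had their highest signal at 12 h. Eif1b, a paralog of the start-codon fidelity factor Eif1, had 391, 1423 and 1581, so it was 3.64-fold higher at 12 h and 4.04-fold higher at 24 h than at 0 h. That was the highest measured ratio of a translation gene at 24 h over 0 h.

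On the other side, Eif6, which keeps the large ribosomal subunit from joining too early, had signals of 133, 36.1 and 67.2, 3.69-fold lower at 12 h than at 0 h. Eif2d, a factor of non-canonical initiation and recycling, had 81.8, 25.6 and 44.6, and its second set was under the floor. Both were lowest at 12 h. Eif5b, which joins the subunits, had 71.9, 75.9 and 53.6, within 2-fold on all arrays, while its second set passed the floor at 0 h only, at 23.9.

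Of the elongation genes, Eef1d and Eef2 had the lowest measured ratios of all 63 genes at 12 h over 0 h, while the group median of -0.76 was above those of eIF3 and the synthetases. Of the 8 with a ratio, 0 passed 2-fold upward against 0 h and 4 passed it downward, beside 17.7% and 27.3% of all genes. Eef1d, a subunit of the exchange factor eEF1B, had signals of 467, 34.1 and 107, 13.7-fold lower at 12 h and 4.37-fold lower at 24 h than at 0 h. Eef2, the translocase, had 1111, 85.4 and 976, 13.0-fold below its 0 h signal at 12 h and 11.4-fold above its 12 h signal at 24 h. Under this scaling Eef2 was thus back within 1.14-fold of its 0 h signal at 24 h, and Eef1d was not.

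Eef1a1, the main carrier of loaded tRNA, had signals of 6477, 4926 and 7460, within 2-fold in every comparison. Eef1a2, the paralog of muscle and nerve, had 40.1 at 0 h and none above the floor in the cultured samples, at least 2.96-fold lower. The eEF1A genes therefore differed, the main form staying within 2-fold and the other passing the floor at 0 h alone. Eef1b2, the catalytic part of the exchange factor, had 31.6, 14.5 and 24.4, 2.18-fold lower at 12 h than at 0 h by its set with the highest mean signal. Its other set was at the floor at 0 h and 24 h and had 25.6 at 12 h, the opposite direction.

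The remaining genes of the group lay near the floor. Eif5a, which despite its name assists elongation and termination and carries the modified residue hypusine, was at the floor at 0 h, with 18.4 at 12 h and 27.4 at 24 h, so at 24 h at least 2.02-fold above 0 h. Eef2k, the kinase that inhibits eEF2, had 17.6 at 0 h and was at the floor later. Eef1akmt1 had 28.1, 28.0 and 14.8, and Eef1g was under the floor on all arrays.

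Synthetase genes were mainly lower at 12 h than at 0 h. Of 16, 8 passed 2-fold downward and 2 upward, beside 27.3% and 17.7% of all genes, and the median log2 ratio was -0.95. The lower count was 10 with unscaled values, 5 with equal medians and 8 after quantile normalization. The lower shares of all genes were then 44.8%, 18.4% and 21.1%. Vars, for valine, had signals of 132, 18.4 and 81.6, 7.17-fold below its 0 h signal at 12 h and 4.43-fold above its 12 h signal at 24 h. Sars, for serine, had 106, 17.3 and 99.6, 6.14-fold below its 0 h signal at 12 h and 5.75-fold above its 12 h signal at 24 h. Aars, for alanine, had 65.3 at 0 h, was at the floor at 12 h and had 53.7 at 24 h, so at least 4.82-fold below its 0 h signal at 12 h, and at 24 h at least 3.97-fold above its 12 h signal. All 3 thus dipped at 12 h. At 24 h under this scaling Sars was 1.07-fold, Aars 1.22-fold and Vars 1.62-fold below its 0 h signal.

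Tars, for threonine, and Gars, for glycine, stayed more than 2-fold below their 0 h signal at 24 h. Tars had signals of 95.8, 17.9 and 28.6, 5.36-fold lower at 12 h and 3.35-fold lower at 24 h than at 0 h. Gars had 157, 61.8 and 55.2, 2.53-fold lower at 12 h and 2.84-fold lower at 24 h than at 0 h. By the set that stands for each gene, these were the 2 of 16 at least 2-fold below 0 h at 24 h, beside 17.7% of all genes. The count was also 2 with equal medians or quantile normalization. With unscaled values it was 11 of 16, beside 49.3% of all genes.

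The remaining lower genes at 12 h were Rars, Wars and Lars. Rars, for arginine, had signals of 187, 66.4 and 104, and Lars, for leucine, 239, 109 and 137. Wars, for tryptophan, had 140, 54.3 and 71.0, 2.57-fold lower at 12 h than at 0 h. A second Wars set gave 66.9 at 0 h and the floor later, at least 4.94-fold lower at both times, and the remaining one 16.4, the floor and 22.6, so all 3 were lower at 12 h and they differed at 24 h.

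In the other direction, Kars, for lysine, had signals of 22.7, 49.2 and 68.3, 2.17-fold higher at 12 h and 3.02-fold higher at 24 h than at 0 h. Cars, for cysteine, had 34.6, 73.0 and 82.0, 2.11-fold and 2.37-fold higher. Nars, for asparagine, had 36.4, 49.5 and 59.0, the same order within 2-fold. These 3 synthetase genes were higher at each later time under this scaling, but with unscaled values Nars was lower at 12 h (log2 ratio -0.25), and Cars (-0.15) and Nars (-0.06) lay below their 12 h signal at 24 h. With equal medians Cars and Nars also lay below their 12 h signal at 24 h.

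The rest lay within 2-fold of their 0 h signal. Iars, for isoleucine, had signals of 122, 119 and 120, Qars, for glutamine, 330, 272 and 266, and Mars1, for methionine, 116, 116 and 80.8. Hars, for histidine, had 64.4, 49.5 and 107, and Yars, for tyrosine, 81.6, 47.7 and 102, each more than 2-fold above its 12 h signal at 24 h. The second Yars set gave 22.5, 14.9 and 21.1, 1.42-fold above its 12 h signal at 24 h. Iars, Qars, Mars1, Lars, Rars and Kars encode enzymes of the multi-synthetase complex of mammalian cells, and they covered all 3 outcomes at 12 h. At 24 h over 12 h, 5 of 16 synthetases (Aars, Hars, Sars, Vars and Yars) passed 2-fold upward and 0 downward, and under each of the 3 other scalings 3 passed it upward. Of all genes, 18.8% passed it upward and 12.0% downward under the main scaling. The share of all genes passing it upward was 12.0% with unscaled values, 13.0% with equal medians and 14.6% after quantile normalization.

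Sequences before the annotated starts are shown for the 3 genes with the lowest and the 3 with the highest measured ratios at 12 h over 0 h among those with a window (Eif4b left out), and for the synthetases that hold a C/EBP-ATF response element, the site through which ATF4 acts when eIF2 is phosphorylated. Windows of 250 bases came from RefSeq on build GRCm38.p6 and were found for 48 of the 63 genes. Each is written 5' to 3' in the direction of the gene and ends at the base before a start given in that table, the nearest to the end of the gene record. For 46 genes that start lies within 250 bases of the record's end, but for Aars it lies 6064 and for Eif4g3 1676 bases inside the record. Capitals mark motifs: TGATGNAA (C/EBP-ATF response element), CACGTG (the E-box bound by Myc among others), TTCNNNGAA (gamma-activated site) and the interferon-stimulated response element, searched on both strands. In the Aars window the capitals are, in order, an E-box, a C/EBP-ATF element and a gamma-activated site, and in the Gars and Tars windows a C/EBP-ATF element. That element lies on the reverse strand in each of them.
Aars, chr8:111033592-111033841, plus strand: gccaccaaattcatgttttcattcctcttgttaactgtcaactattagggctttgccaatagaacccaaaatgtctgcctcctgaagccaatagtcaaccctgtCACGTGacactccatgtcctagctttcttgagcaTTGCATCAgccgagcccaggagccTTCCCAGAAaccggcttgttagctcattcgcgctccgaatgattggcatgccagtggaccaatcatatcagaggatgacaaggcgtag
Gars, chr6:55037751-55038000, plus strand: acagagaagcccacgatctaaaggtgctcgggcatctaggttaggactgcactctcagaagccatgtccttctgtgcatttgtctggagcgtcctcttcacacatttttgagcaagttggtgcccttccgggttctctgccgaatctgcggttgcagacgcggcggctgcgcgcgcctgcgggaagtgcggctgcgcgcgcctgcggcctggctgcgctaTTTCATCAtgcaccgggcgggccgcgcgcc
Tars, chr15:11399659-11399908, minus strand: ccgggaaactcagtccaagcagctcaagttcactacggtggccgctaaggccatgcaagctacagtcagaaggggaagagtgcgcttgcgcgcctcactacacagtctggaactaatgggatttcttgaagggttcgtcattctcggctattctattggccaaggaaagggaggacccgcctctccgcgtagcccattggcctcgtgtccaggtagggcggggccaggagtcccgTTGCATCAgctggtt
Of the 3 genes lowest at 12 h, Eef2 and Eif3k hold an E-box, in capitals, and Eif3b holds none of the motifs.
Eef2, chr10:81176381-81176630, plus strand: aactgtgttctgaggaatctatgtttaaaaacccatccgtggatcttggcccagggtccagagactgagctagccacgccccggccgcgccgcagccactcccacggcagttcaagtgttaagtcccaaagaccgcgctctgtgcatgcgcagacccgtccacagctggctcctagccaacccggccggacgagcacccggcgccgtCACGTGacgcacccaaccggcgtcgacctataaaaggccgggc
Eif3k, chr7:28981889-28982138, minus strand: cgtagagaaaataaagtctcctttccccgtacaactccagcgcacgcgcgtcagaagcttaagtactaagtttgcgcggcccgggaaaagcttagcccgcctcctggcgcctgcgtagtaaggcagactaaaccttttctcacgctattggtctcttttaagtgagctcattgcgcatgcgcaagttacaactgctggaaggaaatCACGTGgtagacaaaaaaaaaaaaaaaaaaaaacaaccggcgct
Eif3b, chr5:140419055-140419304, plus strand: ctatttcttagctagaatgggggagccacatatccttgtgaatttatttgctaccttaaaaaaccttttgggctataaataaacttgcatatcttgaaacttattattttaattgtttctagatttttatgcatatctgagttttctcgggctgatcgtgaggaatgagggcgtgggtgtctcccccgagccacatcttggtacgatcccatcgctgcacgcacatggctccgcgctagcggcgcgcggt
Of the 3 highest, Eif1b holds an E-box, and Eif4a2 and Eif1ax hold none of the motifs.
Eif4a2, chr16:23107218-23107467, plus strand: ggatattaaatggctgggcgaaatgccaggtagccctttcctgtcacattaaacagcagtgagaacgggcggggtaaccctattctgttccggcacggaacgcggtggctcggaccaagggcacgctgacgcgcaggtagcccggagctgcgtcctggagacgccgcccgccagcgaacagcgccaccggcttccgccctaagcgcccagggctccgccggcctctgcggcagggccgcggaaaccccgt
Eif1ax, chrX:159371928-159372177, plus strand: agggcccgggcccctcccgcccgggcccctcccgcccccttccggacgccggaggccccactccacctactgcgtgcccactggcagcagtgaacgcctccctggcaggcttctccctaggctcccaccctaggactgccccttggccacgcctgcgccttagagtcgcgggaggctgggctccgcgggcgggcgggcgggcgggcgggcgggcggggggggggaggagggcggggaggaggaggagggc
Eif1b, chr9:120492356-120492605, plus strand: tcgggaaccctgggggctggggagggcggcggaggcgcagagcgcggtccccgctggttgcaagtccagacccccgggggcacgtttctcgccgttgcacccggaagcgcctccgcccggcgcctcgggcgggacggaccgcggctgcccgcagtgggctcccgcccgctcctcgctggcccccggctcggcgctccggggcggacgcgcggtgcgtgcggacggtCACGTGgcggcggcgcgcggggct

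The C/EBP-ATF element was found in 3 of 48 windows of translation genes (6.25%), all of them synthetases, and in 3.53% of 27025 windows of all genes. Aars, Gars and Tars were each lower at 12 h, by the values above. The E-box was found in 9 of the 48 (18.8%) and in 6.04% of all windows. Besides Aars, Eef2 and Eif3k, its holders were Eif3f, Eef2k, Eif4a1, Eif4h, Iars and Eif1b, of which Eif1b was higher at 12 h. The interferon-stimulated element was found in 2 windows (Eif3a and Qars) and in 3.05% of all. The gamma-activated site was in 5 windows (Aars, Eif2ak2, Eif2ak3, Eif3c and Kars) and in 7.14% of all. A match says only that these letters are present.

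Base composition of the windows also differed between the called genes. The median GC content was 66.4% for the 11 translation genes at least 2-fold higher at 12 h that had a window, with a range of 53.6 to 80.4%. It was 56.0% for the 21 at least 2-fold lower, with a range of 43.6 to 70.0%, so the ranges overlapped. Over all genes the medians were 61.6% for 903 higher and 60% for 1433 lower genes.

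**Figure D5:**
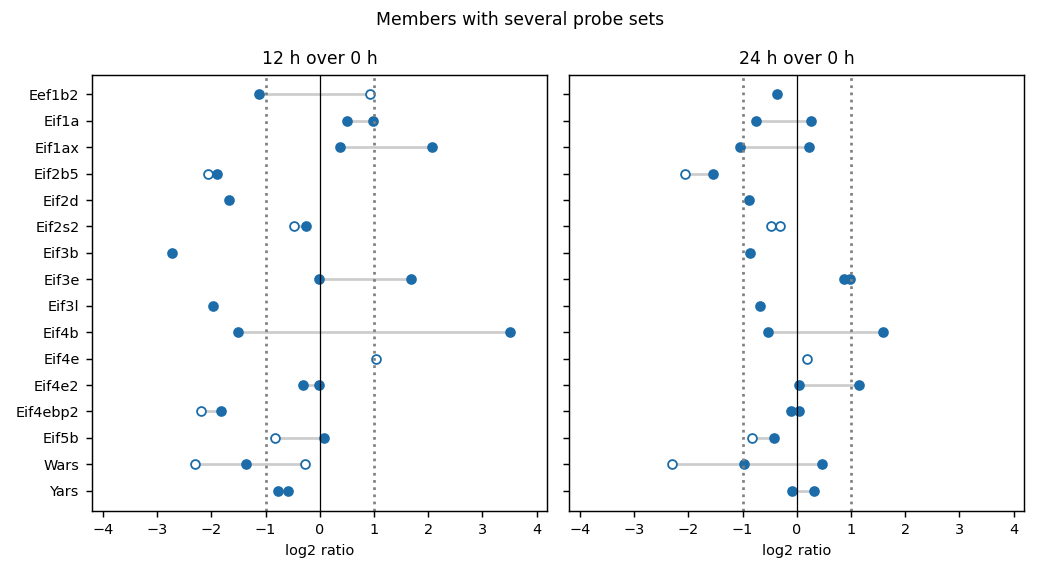
Log2 ratios of single probe sets for the 16 genes with several sets, at 12 h over 0 h (left) and 24 h over 0 h (right); open points have 1 array at the floor, sets with both arrays at the floor are not drawn, and dotted lines mark 2-fold. The sets of Eif4b lie 3.51 above and 1.51 below 0 in the left panel, whereas those of Eif2b5, Eif4ebp2 and Yars lie close together.

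With no replicate arrays, the spread between probe sets of a gene was used to gauge error, which leaves out any spread between embryos. In 16 of the 63 genes there were several sets, and in 6 of them at least 2 sets were above the floor on both arrays at 12 h and 0 h. Of these 6, Eif1a, Eif1ax, Eif4e2 and Yars had sets with the same sign and Eif3e and Eif4b did not. At 24 h over 12 h 4 of 6 such genes had sets of 1 sign, beside 59.2% of all such genes, and at 24 h over 0 h 2 of 8, beside 52.1%. Over all 672 such genes on the array, 56.2% had sets of the same sign, and the SD of a set about its gene's mean was 1.24 on the log2 scale. The SD was 0.82 for 24 h over 12 h and 1.07 for 24 h over 0 h. Within the 6 translation genes the SD at 12 h over 0 h was 1.62. That value rests on 6 genes and includes the sets of Eif4b, at 3.51 and -1.51. It is therefore a rough gauge, and for Eif4b not an independent one. A 2-fold ratio of a single set at 12 h over 0 h is within 1 SD of no difference by either value. The ratios of Eef1d (-3.77), Eef2 (-3.70) and Eif4b (3.51) exceeded 2 SD by both, and the other set of Eif4b goes the opposite way. Those of Eif3k, Vars, Eif3b, Sars and Eif4a2 exceeded 2 SD by the SD over all genes but not by that of the translation genes.

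Other genes of protein synthesis, taken from lists outside the naming rule, are given for comparison. Of 9 genes of termination, recycling and poly(A) binding, 1 passed 2-fold upward at 12 h against 0 h and 2 downward, beside 17.7% and 27.3% of all genes. Paip2, an inhibitor of the poly(A)-binding protein, had signals of 178, 572 and 264, and the release factor gene Etf1 319, 320 and 299. A further list held 10 genes, for synthetases with other names or mitochondrial products and for Aimp1 and Aimp2, partners of synthetases in the multi-synthetase complex. Of these, 4 were at least 2-fold lower and 2 higher at 12 h than at 0 h, beside 27.3% and 17.7% of all genes. The lower ones were Aimp1 (2.79-fold), Aimp2 (2.49-fold) and both subunits of the phenylalanine enzyme, Farsa (at least 6.14-fold) and Farsb (3.83-fold). The higher ones were Eprs, for glutamate and proline (3.12-fold), and the mitochondrial Rars2 (2.49-fold).

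Of 4 mitochondrial translation factors, 3 were at least 2-fold lower at 12 h, beside 27.3% of all genes. Among these 3 was the elongation factor gene Tufm at 95.7, 33.5 and 71.6. Cytosolic ribosomal protein genes gave 9 of 25 at least 2-fold below their 0 h signal and 1 above, beside 27.3% and 17.7% of all genes. Under the other scalings 5 to 15 were below, where 18.4% to 44.8% of all genes were. In 11 genes of mTOR and MAP kinase control with a ratio, 3 were higher and 5 lower at 12 h, beside 17.7% and 27.3% of all genes. The lower ones were the mTOR inhibitors Tsc2 (4.78-fold), Tsc1 (2.67-fold) and Akt1s1 (at least 4.21-fold), with Larp1 and the kinase Mknk2, and the higher ones were Pdcd4, Ddit4 and the kinase Mknk1. Pdcd4, an inhibitor of the eIF4A helicases, had signals of 133, 754 and 272, 5.68-fold higher at 12 h than at 0 h. Ddit4, which restrains mTOR, had 162, 609 and 2892, higher at each later time.

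Targets of the integrated stress response, which follows phosphorylation of eIF2, gave 2 of 18 beyond 2-fold upward at 12 h against 0 h and 5 downward, a balance that turned to 5 up and 3 down with equal medians. All genes gave 17.7% upward and 27.3% downward, and 26.2% and 18.4% with equal medians. At 24 h over 12 h, 7 of 20 targets were higher and 2 lower, beside 18.8% and 12.0% of all genes. The median log2 ratio of the targets was 0.77, beside 0.17 over all genes. The higher count there fell to 1 with unscaled values, 1 with equal medians and 4 after quantile normalization, while the median stayed above 0. The higher share of all genes was then 12.0%, 13.0% and 14.6%. Atf4, the factor that drives the response, had signals of 307, 108 and 153, lowest at 12 h. Slc3a2, an amino acid transporter subunit, had 138, 62.9 and 283, and Asns, asparagine synthetase, 214, 188 and 425. Both had their highest signal at 24 h. The 2 targets at least 2-fold lower at 24 h than at 12 h were Psat1 (2.40-fold) and Ddit3 (2.13-fold).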

How the data were processed

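RNA of 3 samples was amplified with the RiboAmp kit, labelled with the ENZO kit and hybridized to 1-colour Affymetrix arrays, per the labels' protocols. Software listed there is Microarray Suite 5.0 and GeneSpring 6.0. The deposited values are linear intensity values, 1 per probe set, with no detection calls, and the sources used here do not say whether they were scaled. Of 12488 probe sets, 66 are controls and 10833 name 1 gene.

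The arrays were brought to equal means over 12422 non-control sets after trimming 2% at each end (factors 0.676, 1.09 and 1.36 at 0, 12 and 24 h). Values under the pooled 40th percentile (13.53) were set to it, and log2 was taken. No ratio is given where both arrays lie at that floor, and where 1 does the ratio is a bound, written "at least". The set of highest mean signal stands for a gene. With 1 array per time point nothing was tested, genes were counted by a 2-fold rule, and the number of arrays limits precision. Symbols are those of the platform annotation, and all 63 matched a RefSeq gene by identifier. The script was tested on simulated data with Python 3.11.15, numpy 2.4.6 and pandas 2.3.3. By the naming rule every translation gene may be named, with full values for the 5 highest and 5 lowest measured ratios of each comparison, the 4 brightest bounds each way, members fixed by role and genes with several sets. The members and lists were chosen with earlier results of these data known. Lists of markers and of other translation genes are described by counts. Values given for single genes of these lists are examples, chosen with their values known. Alternatives were 3 other scalings, 3 other floors, the mean over probe sets, suffixed sets left out and a 3-fold rule. 1 set naming Eif4a3 together with other genes was left out.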

Additional observations from a re-analysis of the deposited data

How the results depend on the processing

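Of 1357 ratios of single translation genes recomputed under 8 alternatives, 60 changed sign. Of these, 59 were ratios under 2-fold: 24 without scaling, 16 with median centring, 13 after quantile normalization, 5 with the mean over probe sets and 1 with suffixed sets left out. The other was Eef1b2, 2.18-fold lower at 12 h than at 0 h, with a log2 ratio of 0.92 when suffixed sets were left out and its remaining set was used. Of the 13 genes called higher at 12 h, 5 remained so with values as deposited. With values as deposited, 5 genes (8.33%) passed 2-fold upward at 12 h over 0 h, beside 9.06% of all genes. The median log2 ratio was -1.05, beside -0.83 over all genes. The median at 24 h over 12 h was then 0.041. At 24 h over 0 h 1 gene (1.69%) was higher and 36 (61.0%) lower, beside 4.50% and 49.3% of all genes. The median there was -1.31, beside -0.98 over all genes. With arrays centred on the median, the median was 0.065 at 12 h over 0 h, 0.045 at 24 h over 12 h and -0.16 at 24 h over 0 h. In that setting 15 genes (26.3%) were lower at 24 h than at 12 h, beside 17.8% of all genes. For 24 h over 12 h the median was 0.10 after quantile normalization and 0.19 with a floor at the 20th percentile or none. With a floor at the 60th percentile 3 genes (6.12%) were higher at 24 h than at 0 h, beside 13.2% of all genes. At 3-fold, 5 (8.33%) were higher and 16 (26.7%) lower at 12 h than at 0 h, beside 9.56% and 15.2% of all genes. At 24 h over 12 h 7 (12.5%) were higher, beside 7.41%. At 24 h over 0 h 3 (5.08%) were higher and 4 (6.78%) lower, beside 6.63% and 7.76%. Of the 27 genes lower at 12 h than at 0 h, 18 remained so after median centring and 22 after quantile normalization. The lower share of all genes was 27.3% under the main scaling, 18.4% after median centring and 21.1% after quantile normalization. No paired analysis was possible because each time point has 1 array. Signals near the floor carry no order, and detection calls were not used here.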
